A study of Mus musculus with 6 samples.

Results

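The Wnt pathway was described through 52 genes: 14 Wnt ligands, 14 receptors, 8 secreted inhibitors, 8 genes of the R-spondin arm and 8 pathway targets. Members were taken by gene symbol, and each of the 52 symbols matched 1 of the 52325 Ensembl IDs in the table. Of the 52 members 50 passed the filter on low counts and were tested among 20684 genes. The ligand Wnt3 and the inhibitor Dkk1 did not pass it.

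RNA came from 6 sorted populations of breast tumours of C57BL/6 mice that carry C3-T and Elf5-GFP. The comparison set 2 Elf5-positive populations, labelled Elf5+ and sorted as GFP-positive, against 4 Elf5-negative populations, labelled Elf5- and sorted as GFP-negative. In both groups GFP stands for expression of Elf5, an ETS factor of luminal progenitor cells, and an antibody sort for CD45, CD31 and TER119, meant to enrich tumour cells, came first. None of these antibodies marks fibroblasts, and age and the number of animals are not given in the labels. Both Elf5-positive libraries and Elf5-negative libraries 2 and 4 carry the title code T2, and Elf5-negative libraries 1 and 3 carry T1. All 6 titles also carry a number. By it, within T2, Elf5-positive library 1 goes with Elf5-negative library 2 (called pair 1) and Elf5-positive library 2 with Elf5-negative library 4 (called pair 2). The T1 libraries 1 and 3 carry the numbers of pairs 1 and 2, so the 4 Elf5-negative libraries share 2 numbers. The main test did not use the number. The labels define neither the code nor the number. They do not say that libraries came from separate animals, so the spread behind each p-value is that between libraries and may be technical.

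Wnt proteins are secreted lipid-modified ligands that bind frizzled receptors together with the coreceptors Lrp5 and Lrp6. Binding stabilises β-catenin, which enters the nucleus with Tcf and Lef factors and switches on targets such as Axin2, itself a brake on the pathway. R-spondins bind Lgr receptors and relieve the removal of frizzled by the ubiquitin ligases Rnf43 and Znrf3, whereas Sfrp, Dkk and Wif proteins act outside the cell as inhibitors. In the mammary gland Wnt signals maintain basal and stem cell populations, and stromal cells are a source of ligands and inhibitors.

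Library totals ran from 9106660 estimated counts in Elf5-negative library 4 to 53694884, with 32602477 or more in the other 5. Levels are given as CPM, which are estimated counts per 1e6 of the library total scaled by TMM factors. A level of 1 CPM stands for 9.72 counts in Elf5-negative library 4 and 31.7 to 51.7 counts in the others. Elf5 itself was at 107 ± 42.0 CPM in Elf5-positive libraries (SD, n = 2), against 13.2 ± 7.84 CPM in Elf5-negative libraries (SD, n = 4), and the log2 difference was 3.04 (SE 0.48, edgeR adjusted p = 0.0165). Markers of some other cell types differed between the groups. The summed level of 14 fibroblast markers was 1138 to 1405 CPM in Elf5-positive libraries and 17738 to 52369 CPM in Elf5-negative libraries, and 13 of the 14 were called lower. That of 14 epithelial markers was 5810 to 8705 CPM in Elf5-positive libraries and 2216 to 3785 CPM in Elf5-negative libraries, with 6 called higher. The 9 pericyte and smooth muscle markers summed to 104 to 180.2 CPM in Elf5-positive libraries and 463 to 1046 CPM in Elf5-negative libraries. None of these markers was at 0 in all libraries of either group. None of the 9 leukocyte, 8 skeletal muscle and 2 tested adipocyte markers was called, where 4.37% of all tested genes were called in either direction. Summed leukocyte markers overlapped, at 47.4 to 87.1 CPM in Elf5-positive libraries and 52.6 to 167 CPM in Elf5-negative libraries. Skeletal muscle markers summed to 4.54 and 6.43 CPM in Elf5-positive libraries, against 209, 37.5, 3.32 and 8.95 CPM in Elf5-negative libraries 1 to 4. Of 5 Schwann cell markers Sox10 alone was called, as higher. In sorted bulk RNA, fewer cells of a type and less RNA per cell cannot be told apart.

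The secreted inhibitors Sfrp2, Sfrp4, Dkk2 and Dkk3, the ligands Wnt2, Wnt9a, Wnt10a and Wnt11, the receptor Fzd4 and the targets Axin2 and Apcdd1 were lower in Elf5-positive libraries. These 11 are 22% of the 50 tested members, where 3.79% of all tested genes were called lower (quasi-likelihood test of edgeR, p adjusted by Benjamini-Hochberg over 20684 genes, threshold 0.05). No member was called higher, where 0.585% of all tested genes were, and 4.37% were called in either direction. There were 5 members that had a positive fold change at an unadjusted p below 0.05. DESeq2 called 2 members higher, Fzd7 and Rnf43, where it called 436 of all tested genes higher. Another 21 members had a negative fold change at that unadjusted threshold. Over all 20684 tested genes 1075 were higher and 2423 lower there. In all 11 genes every Elf5-positive library lay below every Elf5-negative library. This held for 22 of the 50 tested members, against a background of 14.8% of tested genes, and 5 members lay wholly above, against 10.9%. The median log2 fold change of the tested members was -1.39, against 0.05 over all tested genes. Of the tested members 8 were below the filter's 0.222 CPM in at least 1 Elf5-positive library and passed through the Elf5-negative ones, and of these Wnt2 was called. Their place among the tested members had to favour lower values, so the median and the share are descriptions only.

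**Figure D1:**
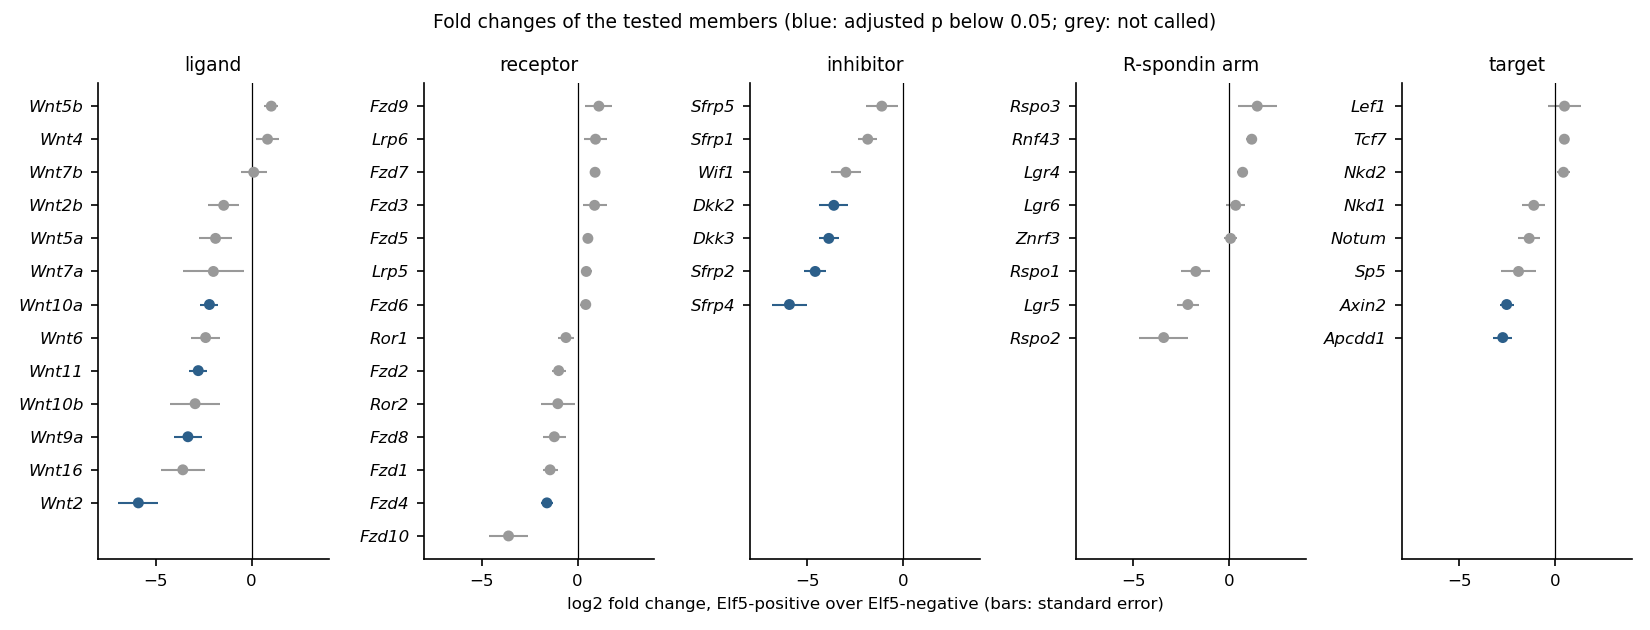
Log2 fold change, Elf5-positive over Elf5-negative, of the 50 tested members by role, with standard errors as bars; blue marks the 11 members with an adjusted p below 0.05. The inhibitors lie wholly below 0, from -5.94 to -1.13, while receptors spread on both sides of it.

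Inhibitors had the largest share of called genes, 4 of the 7 tested, and all 7 had negative fold changes. Sfrp2 (ENSMUSG00000027996.13, chromosome 3, 83766321 to 83774316, GRCm38), a secreted frizzled-related protein that binds Wnt ligands, was at 6.59 and 5.54 CPM in Elf5-positive libraries 1 and 2, against 115, 99.4, 269.9 and 101.0 CPM in Elf5-negative libraries 1 to 4. The groups were far apart, and Elf5-negative library 3 stood well above the other 3. The log2 fold change of Sfrp2 was -4.59 with a standard error of 0.57 (edgeR adjusted p = 0.0114). It was called with each of the 6 libraries left out in turn.

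Sfrp4 (ENSMUSG00000021319.7, chromosome 13, 19623104 to 19632994), of the same family, was at 1.19 and 2.75 CPM in Elf5-positive libraries, against 111, 37.5, 244 and 91.9 CPM in Elf5-negative libraries. Its log2 fold change of -5.94 (SE 0.91, edgeR adjusted p = 0.0155) was the lowest of all tested members. Dkk3 (ENSMUSG00000030772.6, chromosome 7, 112116017 to 112159057), a secreted dickkopf-family glycoprotein, was at 5.49 and 3.37 CPM in Elf5-positive libraries, against 48.0, 54.0, 112 and 47.6 CPM in Elf5-negative libraries. Dkk2 (ENSMUSG00000028031.6, chromosome 3, 132085292 to 132180304), a ligand of Lrp6 and Kremen receptors, was at 1.53 and 0.329 CPM, against 7.38, 11.7, 18.3 and 8.23 CPM in the same order of groups. All of these stood highest in Elf5-negative library 3, which also held the highest summed level of fibroblast markers. Among Elf5-negative libraries it held the highest sums of epithelial (3785 CPM) and of basal and myoepithelial markers (1654 CPM) as well. Pericyte and smooth muscle markers instead summed highest in Elf5-negative library 1 (1046 CPM, against 779 CPM in library 3). The part of these markers in the inhibitor levels was not tested. The log2 fold changes were -3.89 for Dkk3 (SE 0.51, edgeR adjusted p = 0.0121) and -3.62 for Dkk2 (SE 0.76, edgeR adjusted p = 0.0408). Leaving out 1 library ended some calls. The edgeR adjusted p of Sfrp4 was 0.0501 without Elf5-positive library 2 and 0.0523 without Elf5-negative library 1, and that of Dkk3 was 0.0501 without Elf5-positive library 2. For Dkk2 it was 0.0928 without Elf5-positive library 2 and 0.0818, 0.0734 and 0.0999 without Elf5-negative libraries 1, 2 and 3.

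Sfrp1, a further frizzled-related protein, was the inhibitor of highest level per length in the Elf5-positive libraries. It was at 57.2 and 50.5 CPM there, against 140.2, 112, 353 and 176 CPM in Elf5-negative libraries. The groups did not overlap, but its log2 fold change of -1.86 (SE 0.49) did not pass (edgeR adjusted p = 0.0813). Sfrp1 passed with DESeq2 (adjusted p = 0.0035), with no low-count filter in edgeR (adjusted p = 0.0116) and, with the title number as a block, in T2 libraries alone (adjusted p = 0.0267). Wif1, the Wnt inhibitory factor, was at 1.08 and 0.252 CPM in Elf5-positive libraries, against 6.72, 4.76, 7.47 and 2.16 CPM in Elf5-negative libraries, which did not pass (edgeR adjusted p = 0.0858) but did with DESeq2 (adjusted p = 3.55e-04). Sfrp5 was below 1 CPM in every library and its groups overlapped. Dkk1 had 3 counts over both Elf5-positive libraries and was not tested.

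Per kilobase of exon, the 8 inhibitors together came to 17.6 ± 2.17 CPM per kb in Elf5-positive libraries (SD, n = 2), against 167 ± 93.7 CPM per kb in Elf5-negative libraries (SD, n = 4). Sfrp1 made up 68.5% and 72.0% of this sum in Elf5-positive libraries and 24.4%, 25.1%, 26.4% and 31.8% in Elf5-negative libraries. Sfrp2 made up 16.0% in both Elf5-positive libraries and 40.6%, 45.2%, 41.0% and 37.1% in Elf5-negative libraries. Neither share overlapped between the groups. These shares were computed after the values were seen and carry no test.

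**Figure D2:**
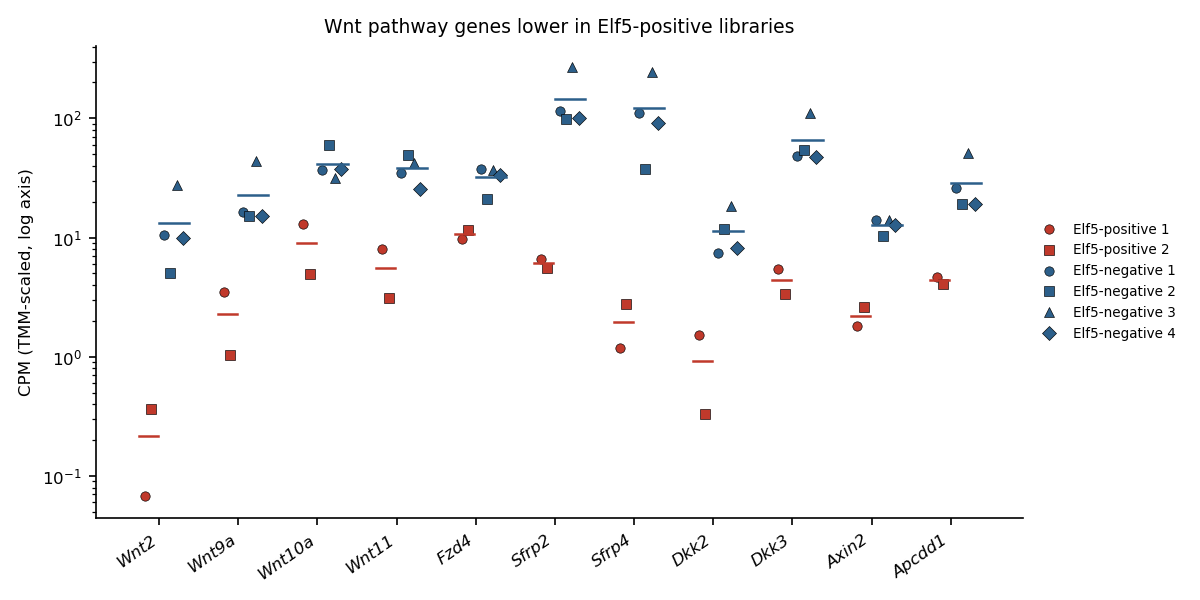
CPM (log axis) in each library of the 11 members called lower, with Elf5-positive libraries in red, Elf5-negative libraries in blue and short lines at group means. No Elf5-positive library reaches an Elf5-negative one, and Elf5-negative library 3 is highest in 7 of the 11 genes.

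Among the ligands 4 of the 13 tested were lower, and 10 had negative fold changes. Wnt2 (ENSMUSG00000010797.6, chromosome 6, 17988940 to 18030585), a ligand of the β-catenin branch, was close to undetected in Elf5-positive cells, with 0.0675 and 0.368 CPM or 22 counts in all. Elf5-negative libraries 1 to 4 held 10.6, 5.01, 27.8 and 9.98 CPM. Its log2 fold change was -5.90 (SE 1.05, edgeR adjusted p = 0.0238). The edgeR adjusted p of Wnt2 was 0.0689 without Elf5-negative library 1, where 249 of all genes tested were called lower, against 783 with all libraries. The call of Wnt2 was also lost without either Elf5-positive library, which leaves 1 library in that group. With 1 library left out its log2 fold change ran from -7.57 to -5.18.

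Wnt11 (ENSMUSG00000015957.12, chromosome 7, 98835112 to 98855195), known for β-catenin-independent signalling in tissue elongation, was at 7.96 and 3.12 CPM in Elf5-positive libraries, against 35.1, 49.3, 42.0 and 25.7 CPM in Elf5-negative libraries. Wnt10a (ENSMUSG00000026167.14, chromosome 1, 74791516 to 74804179), a ligand of ectodermal organs such as hair and teeth, was at 13.0 and 4.97 CPM, against 36.9, 59.4, 31.5 and 37.4 CPM. Both were highest in Elf5-negative library 2, and the summed fibroblast markers in library 3. The part of these markers in the levels of Wnt11 and Wnt10a was not tested. Their log2 fold changes were -2.78 for Wnt11 (SE 0.48, edgeR adjusted p = 0.021) and -2.20 for Wnt10a (SE 0.47, edgeR adjusted p = 0.0429). Wnt9a (ENSMUSG00000000126.11, chromosome 11, 59306928 to 59333552), a ligand of joints and cartilage, was at 3.51 and 1.03 CPM in Elf5-positive libraries, against 16.3, 15.2, 43.7 and 15.1 CPM in Elf5-negative libraries, a log2 fold change of -3.32 (SE 0.73, edgeR adjusted p = 0.0478). Elf5-negative library 3 stood apart from the other 3, which were nearly level.

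Calls of these 3 ligands were lost when single libraries were left out. For Wnt11 the edgeR adjusted p was 0.0569 without Elf5-positive library 2 and 0.0615 and 0.0652 without Elf5-negative libraries 1 and 3. For Wnt10a it was 0.11 without Elf5-positive library 2 and 0.0959, 0.0712, 0.0861 and 0.056 without Elf5-negative libraries 1 to 4. For Wnt9a it was 0.139 without Elf5-positive library 2 and 0.099, 0.0633, 0.0838 and 0.0522 without Elf5-negative libraries 1 to 4, and it also missed the threshold with DESeq2 size factors in edgeR (0.0528) and with the title number as a block (0.0567). Their fold changes stayed negative throughout.

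Wnt6 lies beside Wnt10a on chromosome 1 (74771892 to 74785322) and was at 1.37 and 0.445 CPM in Elf5-positive libraries, against 6.96, 6.37, 1.89 and 3.91 CPM in Elf5-negative libraries. The groups of Wnt6 did not overlap, but it did not pass (log2 fold change -2.40, edgeR adjusted p = 0.132), though it did with DESeq2 (adjusted p = 0.00528). Wnt16 was at 0.247 and 0.0194 CPM, against 1.46, 0.599, 3.34 and 0.926 CPM in Elf5-negative libraries, and did not pass either (edgeR adjusted p = 0.14), while DESeq2 called it (adjusted p = 0.00604). Only 1 Elf5-positive library reached the filter's 0.222 CPM for Wnt16, against all 4 Elf5-negative ones, so it was tested through the Elf5-negative group. Wnt5a, the main β-catenin-independent ligand, overlapped between the groups, at 10.2 and 1.63 CPM in Elf5-positive libraries and 6.38 to 31.9 CPM in Elf5-negative libraries. Wnt10b, a ligand of early mammary development, was at 2.11 and 0.155 CPM in Elf5-positive libraries and 1.95 to 22.5 CPM in Elf5-negative libraries, and also overlapped, but was called lower with the block in T2 libraries alone (edgeR adjusted p = 0.00572). Wnt2b and Wnt7a overlapped and stayed below 3 CPM in all libraries, and Wnt3 had no count in either Elf5-positive library.

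A second set of ligands was abundant in both groups. Wnt7b, a β-catenin ligand of epithelia, had the highest mean level per length of the 14 ligands in both, with 35.1 ± 27.9 CPM per kb in Elf5-positive libraries (SD, n = 2) and 32.6 ± 20.8 CPM per kb in Elf5-negative libraries (SD, n = 4). It was at 269 and 75.2 CPM in Elf5-positive libraries, against 60.0, 288, 192 and 98.5 CPM in Elf5-negative libraries, so its spread within each group was wider than the difference between them (log2 fold change 0.11, SE 0.68, edgeR adjusted p = 0.965). Wnt5b, a ligand related to Wnt5a, was second in Elf5-positive libraries, at 17.9 ± 4.43 CPM per kb, and at 8.85 ± 3.61 CPM per kb in Elf5-negative libraries. In CPM it was at 39.1 and 55.8 in Elf5-positive libraries, against 15.9, 16.5, 25.1 and 36.4 in Elf5-negative libraries. The groups did not overlap, and the log2 fold change of 1.02 (SE 0.37) did not pass (edgeR adjusted p = 0.201) except with the title number as a block (adjusted p = 0.0432). Wnt4, a ligand that acts downstream of progesterone in the mammary gland, was at 47.0 and 14.8 CPM in Elf5-positive libraries and 6.27 to 23.9 CPM in Elf5-negative libraries, which overlap. Within the pairs it was 2.07 and 2.37 times as high in the Elf5-positive library, and of the alternatives the block in T2 libraries alone called Wnt4 higher (log2 fold change 1.14, edgeR adjusted p = 0.0283).

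The sum over the 14 ligands was 67.8 ± 34.0 CPM per kb in Elf5-positive libraries (SD, n = 2) and 92.6 ± 30.5 CPM per kb in Elf5-negative libraries (SD, n = 4), within the spread between libraries. Wnt10a made up 5.74% and 4.61% of it in Elf5-positive libraries and 11.5% to 23.3% in Elf5-negative libraries. Wnt2 made up 0.0326% and 0.373% in Elf5-positive libraries and 1.76% to 11.1% in Elf5-negative libraries. The leading ligand differed between the Elf5-positive libraries, as Wnt7b led in library 1 (59.7%, against 16.1% for Wnt5b) and Wnt5b in library 2 (48.0%, against 35.1% for Wnt7b).

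**Figure D3:**
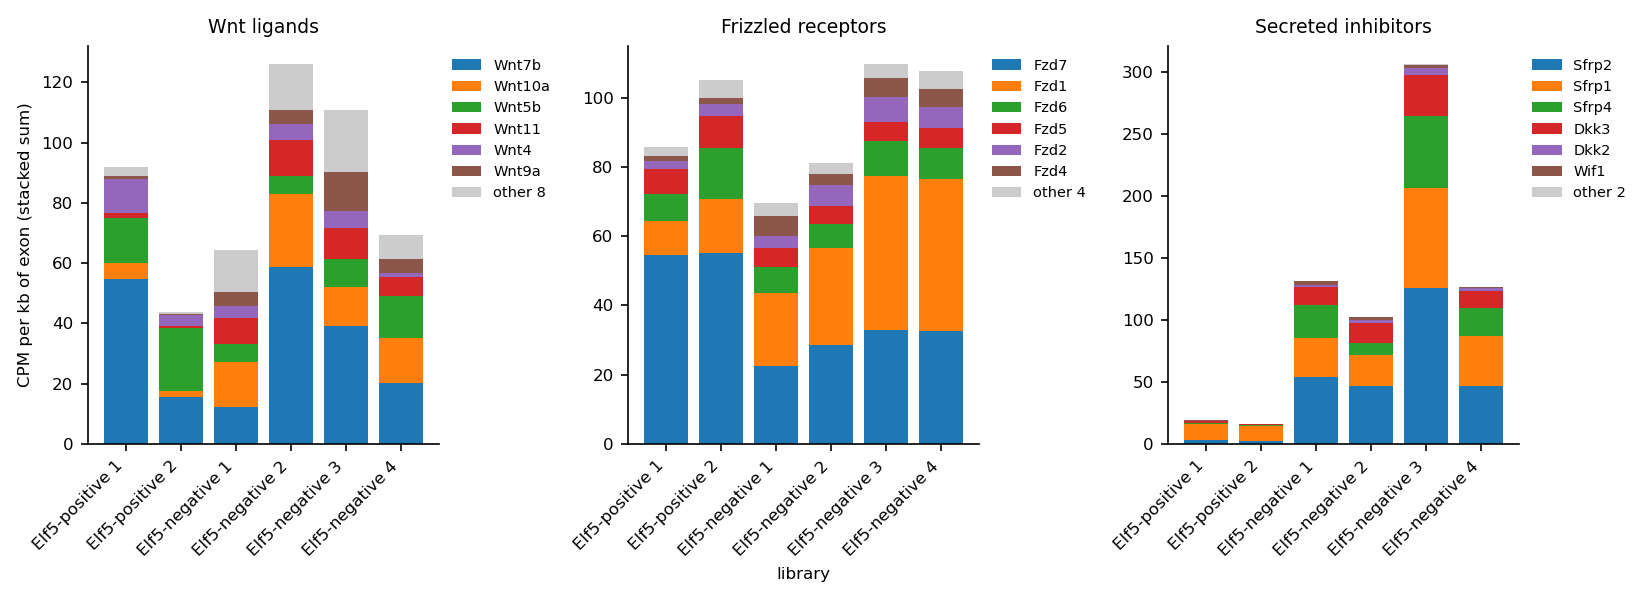
Stacked CPM per kilobase of exon in each library of the Wnt ligands, frizzled receptors and secreted inhibitors, with the 6 genes of highest mean named in each panel. Inhibitors sum to 19.1 and 16.0 in the Elf5-positive libraries and 102 to 306 in the Elf5-negative ones, while the frizzled sums, 86.0 and 105 against 69.7 to 109.7, lie in one range.

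Of the 14 receptors 1 was called, Fzd4 (7.14%). Over all tested genes 3.79% were called lower and 4.37% in either direction, so 1 in so short a list is near the background. The 10 frizzled genes summed to 95.6 ± 13.6 CPM per kb in Elf5-positive libraries (SD, n = 2) and 92.1 ± 19.8 CPM per kb in Elf5-negative libraries (SD, n = 4). Fzd7, a frizzled of mammary stem and basal-like tumour cells, had the highest level per length of all 14 receptors in Elf5-positive libraries, 54.9 ± 0.458 CPM per kb, against 29.2 ± 4.81 CPM per kb in Elf5-negative libraries. It supplied 63.5% and 52.5% of the frizzled sum in Elf5-positive libraries, against 32.4%, 35.3%, 29.98% and 30.2% in Elf5-negative libraries. Fzd1, a frizzled of the same subfamily as Fzd7, supplied 11.5% and 14.8% in Elf5-positive libraries, against 30.2%, 34.3%, 40.5% and 40.7% in Elf5-negative libraries. Fzd7 thus led in both Elf5-positive libraries and in Elf5-negative libraries 1 and 2, and Fzd1 in Elf5-negative libraries 3 and 4. The share of each gene did not overlap between the groups and was not tested.

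In CPM, Fzd7 was at 247 and 250.4 in Elf5-positive libraries, against 102, 130.1, 149 and 148 in Elf5-negative libraries. The log2 fold change of 0.91 (SE 0.23) did not pass (edgeR adjusted p = 0.0729), but passed with DESeq2 (adjusted p = 0.0125), with the title number as a block (0.0487), with that block in T2 libraries alone (0.0306) and with all libraries thinned to the smallest total (0.0489). Fzd1 was at 41.3 and 65.4 CPM in Elf5-positive libraries, against 88.2, 117, 186 and 184 CPM in Elf5-negative libraries. Its log2 fold change of -1.43 (SE 0.39) did not pass either (edgeR adjusted p = 0.0917), and passed with DESeq2 (adjusted p = 0.0102), with no low-count filter (0.0217) and with the block (0.0176). The groups of both genes did not overlap, with Fzd7 above and Fzd1 below in Elf5-positive libraries.

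Fzd4 (ENSMUSG00000049791.4, chromosome 7, 89404355 to 89413134), the receptor of Norrin and of Wnt ligands in blood vessels, was the single receptor called. It was at 9.76 and 11.6 CPM in Elf5-positive libraries, against 37.7, 21.0, 36.8 and 33.5 CPM in Elf5-negative libraries (log2 fold change -1.59, SE 0.32, edgeR adjusted p = 0.0353). The 10 endothelial markers summed to 77.1 and 103 CPM in Elf5-positive libraries and 230 to 289 CPM in Elf5-negative libraries, with Kdr, Tek and Eng called lower. All 10 had negative fold changes, but 7 were not called, and Pecam1, Cdh5, Emcn, Vwf and Cldn5 overlapped between the groups. Flt1, not called, was the highest of the 10, at 59.7 and 61.9 CPM in Elf5-positive libraries and 106 to 223 CPM in Elf5-negative libraries. The part of these markers in the Fzd4 result was not tested. The edgeR adjusted p of Fzd4 was 0.117 and 0.104 without Elf5-positive libraries 1 and 2 and 0.1, 0.0984 and 0.0633 without Elf5-negative libraries 1, 3 and 4. Fzd2, at 8.82 and 12.5 CPM in Elf5-positive libraries and 13.0 to 26.5 CPM in Elf5-negative libraries, and Fzd10, at 0.292 and 0.0194 CPM and 0.72 to 2.54 CPM, did not overlap and did not pass in edgeR. Fzd10 passed with DESeq2 (adjusted p = 0.00114). It reached the filter's 0.222 CPM in only 1 Elf5-positive library but in all 4 Elf5-negative ones, so it was tested through the Elf5-negative group. Fzd5, a frizzled of epithelia, lay above every Elf5-negative library at 49.0 and 63.1 CPM in Elf5-positive libraries, against 35.7 to 41.2 CPM (log2 fold change 0.54, edgeR adjusted p = 0.228). The groups overlapped in Fzd3, Fzd6, Fzd8, Fzd9, the coreceptors Lrp5 and Lrp6, and the tyrosine kinase receptors Ror1 and Ror2 of Wnt5a, with log2 fold changes from -1.21 to 1.11, and none of these passed. Ror2 passed with the block in T2 libraries alone (log2 fold change -1.29, edgeR adjusted p = 0.034).

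None of the 8 genes of the R-spondin arm was called by edgeR, whereas DESeq2 called 2, Lgr5 and Rnf43. With 4.37% of all tested genes called by edgeR in either direction, 0 in so short a list is near the background. DESeq2 called more genes, 436 higher and 1763 lower of the 20684 tested. In edgeR 4 of the 8 had an unadjusted p below 0.05, as had 2423 lower and 1075 higher genes of all 20684 tested. Rnf43, the ligase that removes frizzled from the cell surface and is itself a β-catenin target, was at 19.1 and 17.3 CPM in Elf5-positive libraries, against 8.21, 8.89, 6.27 and 9.05 CPM in Elf5-negative libraries. The libraries of each group lay close together and did not overlap, and the log2 fold change was 1.17 (SE 0.29, edgeR adjusted p = 0.0649; DESeq2 adjusted p = 9.23e-04). Its partner ligase Znrf3 overlapped between the groups, at 11.7 and 18.8 CPM in Elf5-positive libraries and 11.6 to 18.1 CPM in Elf5-negative libraries (log2 fold change 0.07, SE 0.32). Lgr5, a stem cell marker of the intestine and a receptor of R-spondins, was at 1.64 and 3.14 CPM in Elf5-positive libraries, against 7.88, 5.52, 16.0 and 13.5 CPM in Elf5-negative libraries. It did not overlap and did not pass (log2 fold change -2.16, SE 0.57, edgeR adjusted p = 0.085; DESeq2 adjusted p = 0.00119), but passed with the title number as a block (0.0196).

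Lgr6 and Lgr4, the other R-spondin receptors, were more abundant per length than Lgr5 in both groups. Lgr6 was at 21.5 ± 6.28 CPM per kb in Elf5-positive libraries and 17.1 ± 9.07 CPM per kb in Elf5-negative libraries, and Lgr4 at 11.4 ± 3.70 and 7.03 ± 1.73 CPM per kb in the same order. Lgr5 was at 0.233 ± 0.103 CPM per kb in Elf5-positive libraries and 1.04 ± 0.472 CPM per kb in Elf5-negative libraries. Of the R-spondins, Rspo1 and Rspo2 were low in both groups. Rspo3 was at 0.735 and 5.05 CPM per kb in Elf5-positive libraries 1 and 2, against 2.92 and 2.63 CPM per kb for Rnf43. Rspo3 was at 2.27 and 15.6 CPM in Elf5-positive libraries and 0.284 to 5.37 CPM in Elf5-negative libraries, Rspo1 at 1.80 and 0.271 CPM and 2.95 to 4.89 CPM, and neither passed. With the block in T2 libraries alone Rspo3 and Lgr4 were called higher (edgeR adjusted p = 0.0406 and 0.0312). Rspo2 had 3 counts over both Elf5-positive libraries and 51 over the Elf5-negative ones. It reached the filter's 0.222 CPM in 0 Elf5-positive and 2 Elf5-negative libraries. It did not pass (log2 fold change -3.42, SE 1.26, edgeR adjusted p = 0.21). Its pooled ratio, Elf5-negative over Elf5-positive, had an exact 95% interval of 3.87 to 60.0 that covers counting error only. That interval leaves out the spread between libraries and takes no account of the filter.

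**Figure D4:**
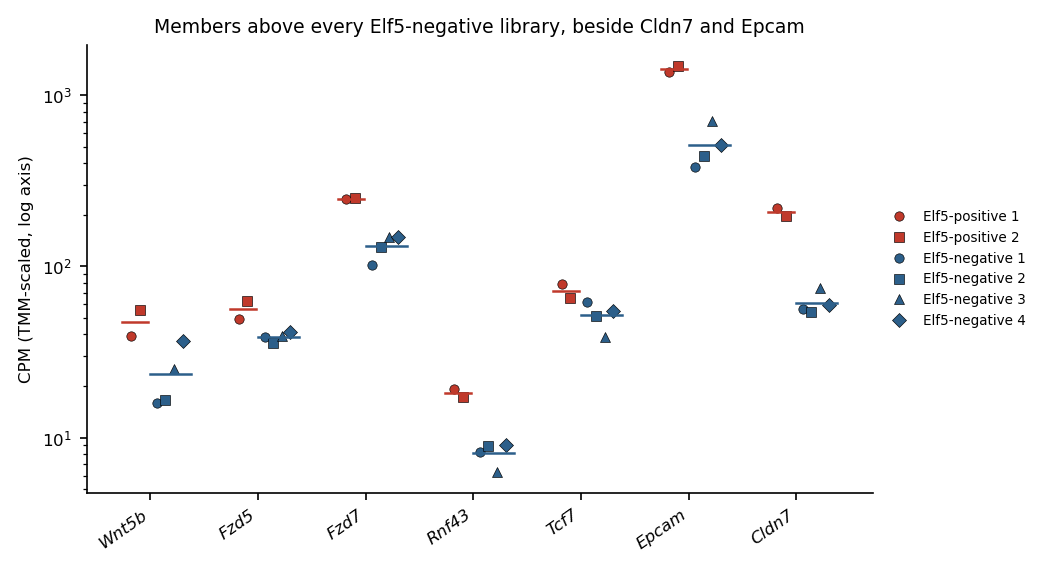
CPM (log axis) per library of the 5 tested members whose Elf5-positive libraries (red) lie above every Elf5-negative library (blue), beside the epithelial markers Epcam and Cldn7; short lines are group means. The 5 members, none of which edgeR called, lie at 0.48 to 1.17 in log2 fold change; the whole list of 14 epithelial markers runs from 0.66 to 2.07, with Epcam at 1.48 and Cldn7 at 1.76.

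Targets of the pathway did not move as 1 group. Axin2 (ENSMUSG00000000142.15, chromosome 11, 108920349 to 108950783), the scaffold of the β-catenin destruction complex that β-catenin induces in most tissues, was at 1.82 and 2.61 CPM in Elf5-positive libraries, against 14.1, 10.4, 14.0 and 12.8 CPM in Elf5-negative libraries. The log2 fold change was -2.53 (SE 0.37, edgeR adjusted p = 0.0135), and was lost only without Elf5-negative library 1 among the single libraries (0.0507). The 4 Elf5-negative libraries lay between 10.4 and 14.1 CPM in Axin2. Their fibroblast markers summed to 17738 to 52369 CPM, and the part of these markers in the Axin2 result was not tested. Apcdd1 (ENSMUSG00000071847.12, chromosome 18, 62922231 to 62961179), a membrane inhibitor of Wnt signalling that is itself a target, was at 4.63 and 4.10 CPM in Elf5-positive libraries, against 26.1, 19.3, 51.1 and 19.1 CPM in Elf5-negative libraries. Its log2 fold change was -2.73 (SE 0.50, edgeR adjusted p = 0.0265), with an adjusted p of 0.071 and 0.107 without Elf5-positive libraries 1 and 2 and 0.0738 without Elf5-negative library 1.

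Other targets gave a different picture. Nkd2, an inhibitor that binds dishevelled, had the highest level per length of the 8 targets, 61.1 ± 6.67 CPM per kb in Elf5-positive libraries (SD, n = 2) and 45.3 ± 16.4 CPM per kb in Elf5-negative libraries (SD, n = 4). It was at 272 and 318 CPM in Elf5-positive libraries, against 155, 164, 230.2 and 326 CPM in Elf5-negative libraries, which overlap. Tcf7, a β-catenin partner and target, was at 78.6 and 65.7 CPM in Elf5-positive libraries, against 62.0, 51.4, 38.7 and 55.1 CPM in Elf5-negative libraries. It lay above every Elf5-negative library but did not pass (log2 fold change 0.48, SE 0.24, edgeR adjusted p = 0.386). Nkd1 overlapped, at 6.55 and 2.13 CPM in Elf5-positive libraries and 4.73 to 13.4 CPM in Elf5-negative libraries. Notum, an enzyme that strips the lipid from Wnt proteins, was at 1.60 and 0.658 CPM in Elf5-positive libraries, below the 1.92 to 3.78 CPM of Elf5-negative libraries, and did not pass (edgeR adjusted p = 0.273). Sp5, a transcription factor and target, was below 1 CPM in every library.

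Promoter windows were read from RefSeq (GRCm38.p6) for 34 of the 52 members, from 250 bases before to 50 bases after the annotated start. Tcf and Lef proteins are known to bind the letters CTTTGAA as well as CTTTGAT, and the related forms CTTTGTA as well as CTTTGTT, and these 4 were searched on both strands. A match was present in 7 of these 34 members (20.6%), against 18.9% of all 27025 genes with a window. Of the 7 called members with a window only Wnt11 held one. Shown are Axin2, as the target with the most even levels among Elf5-negative libraries, Sfrp2, as the called member of smallest adjusted p, and Wnt11, as the called member with a match. The windows are chr11:108920099-108920398, chr3:83766071-83766370 and chr7:98834862-98835161, all on the plus strand, and capitals mark the match.
Axin2: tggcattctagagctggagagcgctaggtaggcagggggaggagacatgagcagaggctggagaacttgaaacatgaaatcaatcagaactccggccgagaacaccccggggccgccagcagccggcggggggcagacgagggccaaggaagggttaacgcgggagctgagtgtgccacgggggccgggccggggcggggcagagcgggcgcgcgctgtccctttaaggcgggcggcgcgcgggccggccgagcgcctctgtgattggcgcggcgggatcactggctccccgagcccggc
Sfrp2: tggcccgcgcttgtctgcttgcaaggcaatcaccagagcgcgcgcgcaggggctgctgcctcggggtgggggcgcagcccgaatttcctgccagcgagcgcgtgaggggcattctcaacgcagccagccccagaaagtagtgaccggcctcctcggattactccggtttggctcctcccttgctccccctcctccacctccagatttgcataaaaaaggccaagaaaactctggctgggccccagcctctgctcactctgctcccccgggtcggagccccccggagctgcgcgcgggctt
Wnt11: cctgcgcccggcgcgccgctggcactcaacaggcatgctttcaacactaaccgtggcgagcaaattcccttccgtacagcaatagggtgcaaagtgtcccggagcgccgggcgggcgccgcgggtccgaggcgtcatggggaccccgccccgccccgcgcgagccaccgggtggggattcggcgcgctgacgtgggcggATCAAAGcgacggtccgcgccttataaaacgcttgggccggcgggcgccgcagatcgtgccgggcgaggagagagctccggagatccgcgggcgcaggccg
The capitals in Wnt11 start at base 200 of the window and are the reverse complement of CTTTGAT. The windows of Axin2 and Sfrp2 hold none of the searched letters, which says nothing of sites elsewhere in these genes.

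Some members differed more between the pairs of T2 libraries than between the sorts. Of the 50 tested members 10 had both libraries of pair 1 above both of pair 2, and 9 the reverse. These shares, 20% and 18%, lie below the 25.9% and 26.4% of all tested genes, and the members were chosen for description after their values were seen, with no test. Wnt7b stood at 269 and 288 CPM in pair 1 (Elf5-positive, then Elf5-negative library), against 75.2 and 98.5 CPM in pair 2. Lef1, a β-catenin partner and target, stood at 18.9 and 20.3 CPM in pair 1 but only 4.72 and 3.19 CPM in pair 2. Ror2 held 21.5 and 44.3 CPM in pair 1, against 2.57 and 7.82 CPM in pair 2. For Wnt7b and Lef1 the sorts within a pair were closer to each other than the pairs were. Ror2 also differed within the pairs, with Elf5-positive over Elf5-negative ratios of 0.486 in pair 1 and 0.329 in pair 2. Elf5-negative libraries 1 and 3 carry the numbers of pairs 1 and 2 with code T1. They followed the order of the pairs for Lef1, at 7.36 and 2.66 CPM, and for Ror2, at 24.8 and 20.9 CPM, but not for Wnt7b, at 60.0 and 192 CPM.

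**Figure D5:**
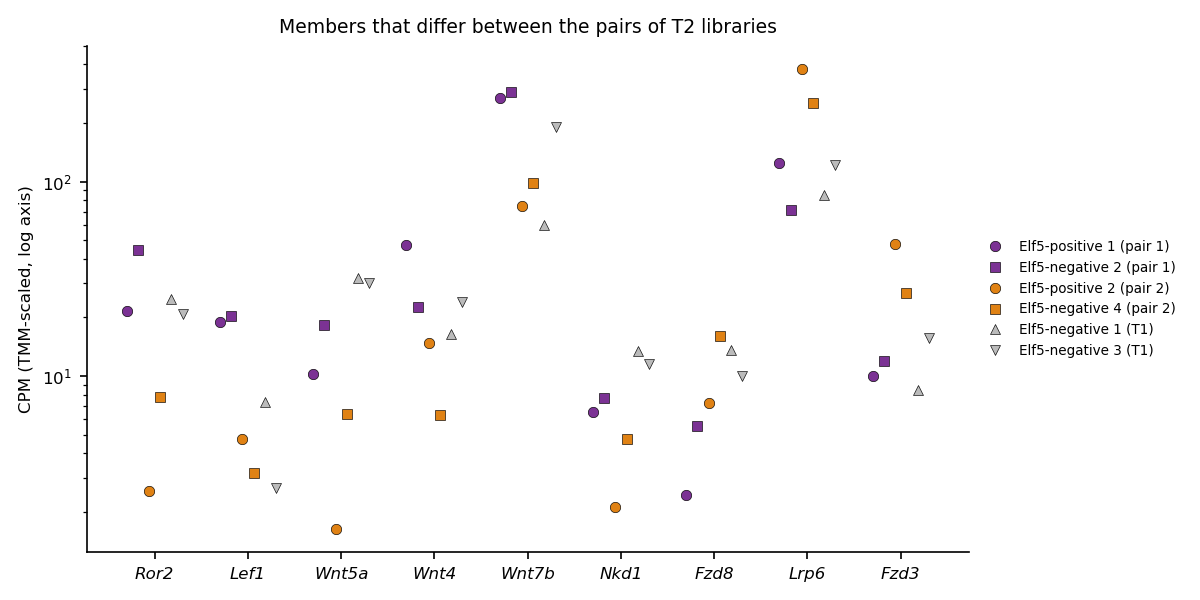
CPM (log axis) per library of the 9 tested members whose pairs did not overlap, with both pair means at 3 CPM or more and a ratio of 2 or more; purple is pair 1, orange is pair 2 and grey the T1 libraries, with circles for Elf5-positive libraries. Ror2 is 6.33 times as high in pair 1 as in pair 2, and Fzd3 3.385 times as high in pair 2 as in pair 1.

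Lrp6, the coreceptor on distal chromosome 6 (134446476 to 134566965), was at 125 and 381 CPM in Elf5-positive libraries, against 85.1, 71.2, 122 and 252 CPM in Elf5-negative libraries. Its 2 highest libraries were those of pair 2. The same held for neighbouring genes, such as Etv6 (311 and 181 CPM in pair 2, against 66.7 to 104 CPM in the other 4) and Dusp16 (181 and 135 CPM, against 42.5 to 53.2 CPM). Within 1 Mb of Lrp6, with Lrp6 itself left out, 13 of 32 tested genes (40.6%) had both pair 2 libraries above the other 4, against 16.6% of all tested genes. This window was chosen after the values of Lrp6 were seen, and DNA copy number was not analysed here. Within each pair Lrp6 was higher in the Elf5-positive library, by 1.75 times in pair 1 and 1.51 times in pair 2, and it did not pass (edgeR adjusted p = 0.504). Rspo3, on chromosome 10, had 15.6 and 5.14 CPM in pair 2, against 2.27 and 0.284 CPM in pair 1. Elf5-negative libraries 1 and 3 held 5.37 and 2.38 CPM of Rspo3, so pair 2 was not above all others. All 11 called members were lower in the Elf5-positive library of both pairs, as were 31 of the 50 tested members (62%), against 34.2% of all tested genes. Another 11 (22%) were higher in both, against 34.8%. For the called members this follows from the lack of overlap between the groups and adds no support. The direction within pairs was fixed in the same way for the 22 members wholly below and the 5 wholly above.

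Outside the members, 69 further genes of the pathway were counted, of which 62 were tested. Of these 5 were lower in Elf5-positive libraries (8.06%) and none was higher in edgeR, with 1 higher in DESeq2. Over all tested genes 3.79% were lower and 0.585% higher. Gpc3, a glypican that binds Wnt proteins at the cell surface, was at 4.30 and 2.44 CPM in Elf5-positive libraries, against 85.8, 59.9, 141 and 27.3 CPM in Elf5-negative libraries (log2 fold change -4.54, edgeR adjusted p = 0.017). Of 12 planar cell polarity genes Daam2, a formin-family partner of dishevelled, was at 0.878 ± 0.128 CPM in Elf5-positive libraries (SD, n = 2), against 9.92 ± 3.43 CPM in Elf5-negative libraries (SD, n = 4; log2 fold change -3.50, edgeR adjusted p = 0.0132). Prickle2, a cytoplasmic polarity protein, was at 1.64 ± 0.0908 CPM, against 10.2 ± 3.17 CPM in Elf5-negative libraries (log2 fold change -2.64, edgeR adjusted p = 0.02). The broad targets Fgf18, a growth factor, and Nrcam, an adhesion molecule, had log2 fold changes of -4.40 and -3.73 (edgeR adjusted p = 0.0137 and 0.0297). All 5 had no overlap between the groups, as had 13 of the 62 tested genes in this direction, against 14.8% of all tested genes. Single libraries ended the calls of Gpc3 (0.0736 without Elf5-positive library 2, 0.0578 without Elf5-negative library 1), Daam2 (0.0519 without Elf5-positive library 2), Prickle2 (0.0656 and 0.0793 without Elf5-positive libraries 1 and 2, 0.0665 and 0.0573 without Elf5-negative libraries 1 and 3) and Nrcam (0.1 and 0.105 without Elf5-positive libraries 1 and 2, 0.0755 and 0.0677 without Elf5-negative libraries 1 and 3).

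Of the 16 genes of the cytoplasmic core 0 were called by edgeR. With 4.37% of all tested genes called in either direction, a count of 0 called in so short a list is near the background. None of the 16 had an unadjusted p below 0.05, where 2423 lower and 1075 higher genes of all 20684 tested had one. Ctnnb1, which encodes β-catenin, was at 804 and 919.8 CPM in Elf5-positive libraries, against 771, 809, 753 and 812 CPM in Elf5-negative libraries (log2 fold change 0.13, SE 0.24). Gsk3b, the kinase that marks β-catenin for destruction, was at 85.1 ± 1.53 CPM in Elf5-positive libraries (SD, n = 2) and 90.2 ± 2.36 CPM in Elf5-negative libraries (SD, n = 4). None of the 12 nuclear partners was called, with 2 at an unadjusted p below 0.05. Of the 9 genes of secretion and coreceptors, Wls, which carries Wnt proteins to the surface, was at 46.9 and 113 CPM in Elf5-positive libraries, against 192, 145, 242 and 263 CPM in Elf5-negative libraries, and did not pass (log2 fold change -1.40, edgeR adjusted p = 0.119). Kremen1, a Dkk receptor, had a log2 fold change of -1.47 that just missed the threshold (edgeR adjusted p = 0.0537).

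Fibroblast and pericyte markers were lower in the same libraries as the 11 called members, and 7 of these stood highest in Elf5-negative library 3, as did 13 of the 14 fibroblast markers and 20 of the 50 tested members. Among Elf5-negative libraries the summed epithelial markers also peaked in library 3, but the summed pericyte and smooth muscle markers in library 1. Col3a1, a fibrillar collagen, was at 261 and 223 CPM in Elf5-positive libraries, against 8876, 5289, 19805 and 7054 CPM in Elf5-negative libraries, a log2 fold change of -5.41 (edgeR adjusted p = 0.0124). The 14 fibroblast markers ran from -6.07 to -1.24 in log2 fold change, and the 11 called members from -5.94 for Sfrp4 to -1.59 for Fzd4. The part of these markers in the Wnt results was not tested. Of 10 basal and myoepithelial markers 3 were called lower (Krt5, Acta2 and Col17a1), while 4 had positive fold changes that did not pass (Krt14, Krt17, Lgals7 and Itga6). Their summed level overlapped, at 1039 to 1493 CPM in Elf5-positive libraries and 1011 to 1654 CPM in Elf5-negative libraries. With the 4 T2 libraries alone and no block edgeR called no member and no gene of the whole table. There 19 of 48 tested members were lower and 2 higher at an unadjusted p below 0.05. Of all 19395 genes tested there, 1463 were lower and 469 higher at that threshold. With the block added, 18 members were lower and 4 higher, the 11 among the lower.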

How the data were processed

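RNA sequencing was measured in 6 sorted populations, 2 Elf5-positive and 4 Elf5-negative, grouped by the genotype label. The authors made the estimated counts per Ensembl gene, deposited as whole numbers, with Salmon against GRCm38.p5 (from the submitters' processing notes). Salmon's version, the annotation's release and the step from transcripts to genes were not given in the sources used here. Such counts divide reads between similar genes by model. Symbols were matched for 52220 IDs, and positions and exon-union lengths came from GENCODE M21 (GRCm38). CPM per kb is TMM-scaled CPM over that length and ignores which isoform was used.

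Counts were filtered with filterByExpr by group, scaled with TMM factors and tested with edgeR 4.0.16 in R 4.3.3 (quasi-likelihood test, no block, Benjamini-Hochberg over 20684 genes). Standard errors are the log2 fold change over the root of F. The common biological coefficient of variation was 0.446. DESeq2 1.42.0, another scaling, other filters, thinning, a block and left-out libraries were alternatives. Gene lists and members were chosen with earlier results of these data known. All members were to be named, with called or leading genes of the other lists.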

Additional observations from a re-analysis of the deposited data

Results flagged for a closer look

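In 4 of 56 results checked, 1 Elf5-negative library lay far from the other 3, where chance alone gives about 1 in 20 groups. Wnt9a reached 43.7 CPM in Elf5-negative library 3, against 15.1 to 16.3 CPM in the other 3. Sfrp2 was at 269.9 CPM there, against 99.4 to 115 CPM, and Dkk3 at 112 CPM, against 47.6 to 54.0 CPM. Rspo1 reached 4.89 CPM in Elf5-negative library 2, against 2.95 to 2.99 CPM in the others.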

How the results depend on the processing

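Of 822 comparisons of single genes with another setting, 681 kept direction and side of the threshold, 79 lost the call, 41 gained it and 21 changed sign, and no called gene changed sign. Members called lower numbered 17 with no low-count filter, 19 with DESeq2, 18 with the title number as a replicate block in T2 libraries alone, 0 without it in T2 libraries alone (19 at an unadjusted p below 0.05) and 2 with Elf5-negative libraries 3 and 4 only. They numbered 2 to 10 with 1 library left out. Those called higher numbered 2 with DESeq2, 2 with the replicate block, 4 with the block in T2 libraries alone and 1 when thinned. Other pathway genes called lower numbered 9 with DESeq2, 8 with the block in T2 libraries alone, 0 without it in T2 libraries alone, 0 with Elf5-negative libraries 3 and 4 only and 1 to 5 with 1 library left out. Those called higher numbered 1 with no filter, 1 with DESeq2, 1 with the block, 3 with the block in T2 libraries alone and 0 to 1 with 1 library left out. Over all genes, 273 higher and 1331 lower were called with no filter, 436 and 1763 with DESeq2, 549 and 1368 with the block in T2 libraries alone, 0 and 0 there with no block (469 and 1463 at an unadjusted p below 0.05), and 0 and 75 with Elf5-negative libraries 3 and 4 only. The block over all libraries gave 252 higher and 1011 lower, and leaving out 1 library 25 to 133 and 197 to 811. The cause was not tested.

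Signs changed only in genes not called. With 1 library left out, log2 fold changes ran from -0.24 to 1.42 for Wnt4, -1.09 to 0.75 for Wnt7b, -0.64 to 1.61 for Fzd3, -0.096 to 0.81 for Fzd6, -0.26 to 1.81 for Fzd9, -0.086 to 1.53 for Lrp6, -0.52 to 2.27 for Rspo3, -0.31 to 0.37 for Znrf3 and -0.84 to 1.41 for Lef1. With the replicate block Wnt7b was at -0.088. With the block in T2 libraries alone Wnt7b, Lgr6 and Znrf3 were at -0.24, -0.23 and -0.037, and with no block at -0.17, -0.19 and -0.011, with Lef1 at -0.0034. Thinned, Znrf3 was at -0.0055.

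The title numbers are not shown to pair the samples. Deviations from group means correlated at 0.502 in pair 1 and 0.555 in pair 2, but there are only 2 such pairs. The deviations of the 2 Elf5-positive libraries are mirror images by construction, so these values are not independent. T1 libraries gave 0.156 (Elf5-negative library 1 with Elf5-positive library 1) and -0.0261 (Elf5-negative library 3 with Elf5-positive library 2) for the same title numbers. Depth limits genes below about 1 CPM, most of all in Elf5-negative library 4.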
